A study of Homo sapiens with 6 samples.

Results

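The genes described here are 37 transcripts of the integrated stress response and of protein synthesis: 17 cytosolic aminoacyl-tRNA synthetases from AARS to YARS, and 20 genes of the eIF2alpha-ATF4 pathway. They were taken by name from the 26485 gene symbols of the count table, and all 37 were present under the symbols given, the synthetases under their older ones (AARS for AARS1 and so on). The samples were PC-9 cells, an established human lung adenocarcinoma line with mutant EGFR, in 2 groups of 3 biological replicates. The group shControl stably expressed a control short hairpin RNA (shRNA), which the table's columns call ShEV, and the group shIFITM3 stably expressed an shRNA against IFITM3, an interferon-induced membrane protein. Both groups were cultured alike in RPMI with serum, no drug or amino acid deprivation is named in the labels, and how many hairpins or clones stand behind each group is not given in the sources used here.

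Cells slow translation when amino acids run short, when proteins misfold in the endoplasmic reticulum (ER), or under other stresses, by phosphorylating the initiation factor eIF2alpha. General initiation then drops, while the mRNA of the transcription factor ATF4 is translated better, so that ATF4 protein can rise with little change in its mRNA. ATF4 is known to raise genes of amino acid uptake and synthesis, genes of the tRNA synthetases, which load each amino acid onto its tRNA, and, when stress lasts, genes that restore translation or promote cell death. Protein levels and phosphorylation were not measured in these samples.

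Depth was between 21342028 and 27493145 total counts in 5 libraries and 77228760 in shControl replicate 2. IFITM3 was at 57.0, 60.5 and 62.8 CPM (counts scaled to library size) in shControl samples 1 to 3 and at 10.4, 12.9 and 9.75 CPM in those of shIFITM3, so the targeted transcript goes with the labels of all 6 samples. Of 7 epithelial and lung markers, 6 were above 1 CPM, among them EPCAM and KRT8, whereas the lung lineage factor gene NKX2-1 was close to 0 in both groups (0.0295 ± 0.0267 and 0.0859 ± 0.0870 CPM, mean ± SD, n = 3). The 13 markers of other cell types summed to between 75.7 and 83.1 CPM in shControl and between 85.9 and 94.9 CPM in shIFITM3, most of it CD68, and DCN, LUM, ALB and INS had no count in any library. The part of these cells in the results was not tested. GENCODE lists pseudogenes named after 12 of the 37 genes, among them ATF4, ASNS, PSAT1, PSPH and MTHFD2. None of these pseudogenes was tested, and how reads shared with such copies were counted is not stated. In bulk RNA, fewer cells with a transcript and less of it in each cell cannot be told apart.

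All 37 genes had enough counts to be tested, and 35 of them had over 100 counts in every library. In the knockdown cells the genes went in different directions by role. Of the 17 cytosolic synthetases 11 fell and 2 rose, with log2 changes that ran from -0.364 to 0.292. Of 6 enzymes of asparagine, serine and folate metabolism 5 fell and 0 rose. Of 4 genes whose products add or remove the phosphate of eIF2alpha 3 rose and 1 fell, and of 5 transcription factors or cofactors of the pathway 4 rose and 1, ATF4 itself, fell. Here a gene is said to rise or fall where its edgeR quasi-likelihood test gave a p under 0.05 after Benjamini-Hochberg (BH) adjustment over the 14018 genes tested. By that rule 56.1% of all tested genes changed, 27.7% upwards and 28.4% downwards, so a call by itself is common in this comparison. In 34 of the 37 genes the 2 groups had separate ranges of CPM, and so had 60.9% of all tested genes. Among the 20 pathway genes 9 rose and 9 fell, an even split. The synthetases fell in 64.7% of cases, with a median log2 change of -0.19 against 0.00 over all tested genes. The median size of change, regardless of sign, was 0.26 on the log2 scale for the synthetases, 0.48 for the pathway genes and 0.25 for all tested genes.

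**Figure D1:**
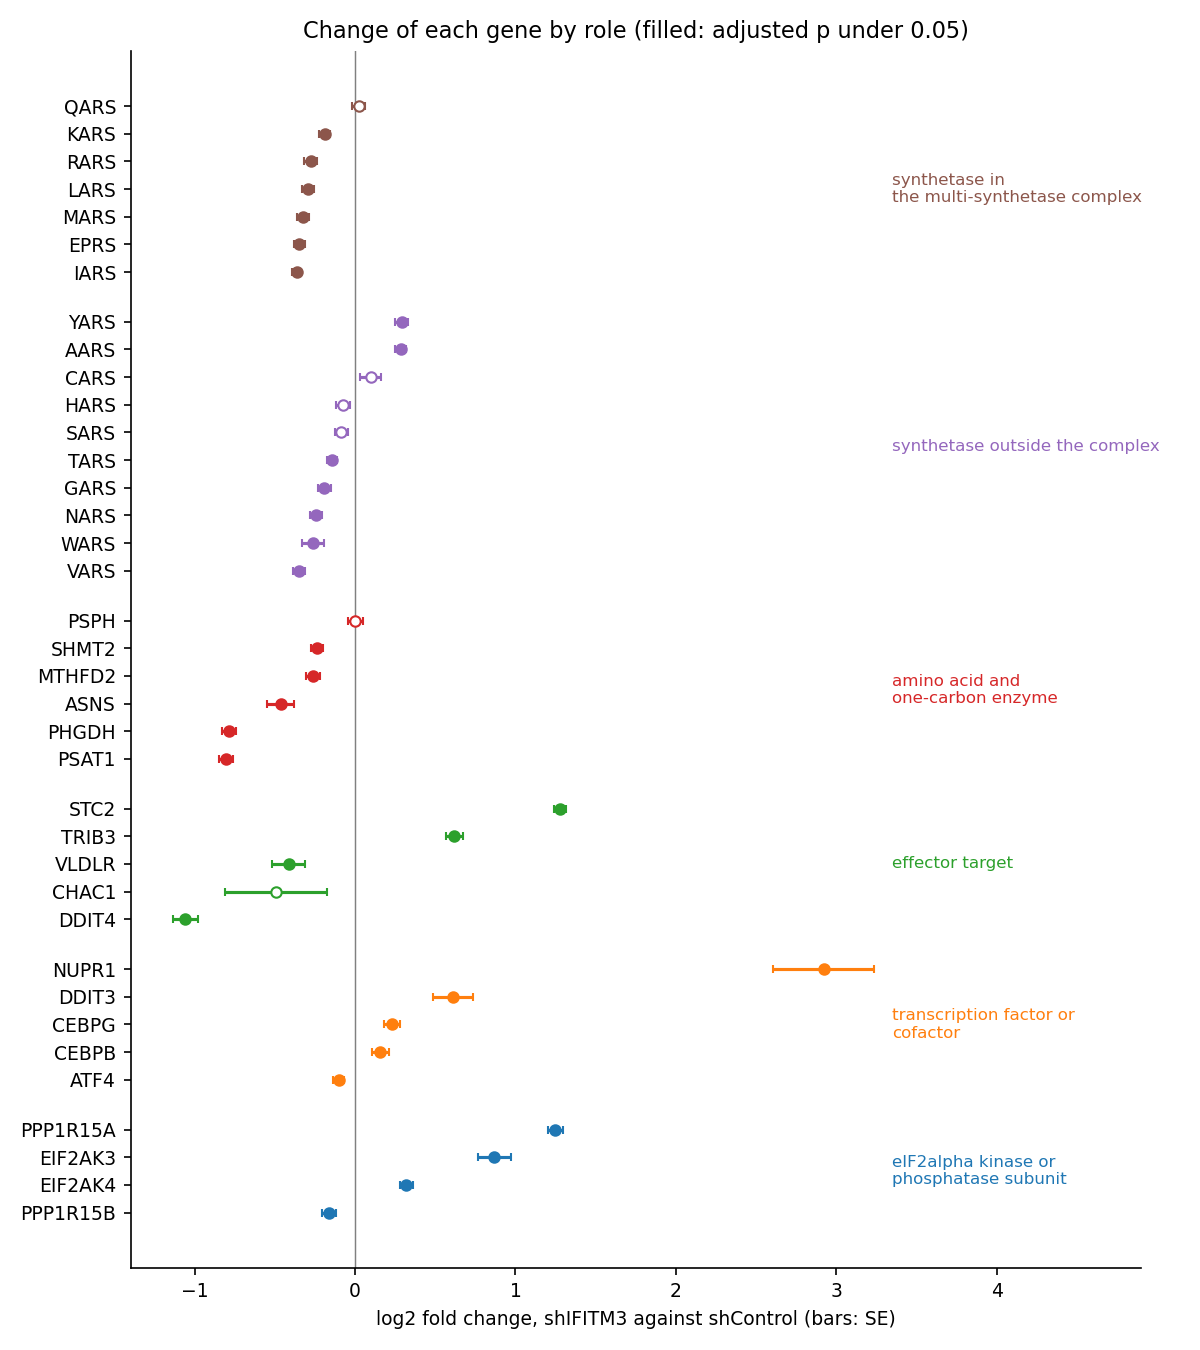
Log2 change (shIFITM3 against shControl, x axis) of each of the 37 genes, grouped by role, with bars for the standard error and filled points for an adjusted p under 0.05. The complex synthetases run from -0.36 for IARS to 0.02 for QARS, the one complex member above 0, while NUPR1, STC2 and PPP1R15A lie farthest to the right.

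Among 4 genes for eIF2alpha kinases or phosphatase subunits 3 rose and 1 fell, beside 27.7% and 28.4% of all tested genes. Of the phosphatase subunits PPP1R15A rose and PPP1R15B fell, and the kinase genes EIF2AK1 and EIF2AK2, outside this set, did not pass. PPP1R15A (chromosome 19, 48872421 to 48876058, GRCh38), which encodes the stress-induced subunit GADD34 that guides a phosphatase to eIF2alpha, was at 69.4, 71.5 and 65.8 CPM in the shControl samples (replicates 1 to 3) and at 172, 152 and 169 CPM in the shIFITM3 samples. Every knockdown sample was thus far above every control. Its log2 change was 1.25 (SE 0.0477, edgeR adjusted p = 1.5e-16). PPP1R15B (chromosome 1, 204395826 to 204411817), the constitutive counterpart CReP, fell slightly, from 111 ± 1.07 to 98.9 ± 3.57 CPM (-0.16 on the log2 scale, edgeR adjusted p = 0.00186). EIF2AK3 (chromosome 2, 88556741 to 88628145) encodes PERK, the eIF2alpha kinase of the ER, and was at 9.62, 8.98 and 9.05 CPM in the control samples and 17.4, 14.3 and 18.5 CPM in the knockdown samples. The groups did not overlap, and the log2 change was 0.87 (SE 0.105, edgeR adjusted p = 1.74e-07). EIF2AK4 (chromosome 15, 39934115 to 40035591) encodes GCN2, the kinase that senses uncharged tRNA, and was at 119, 117 and 121 CPM in shControl and 148, 145 and 152 CPM in shIFITM3. All 3 knockdown samples lay above all 3 controls, with a log2 change of 0.32 (SE 0.0383, edgeR adjusted p = 1.58e-07).

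The remaining eIF2alpha kinases and the factors around eIF2 mostly fell or did not pass. EIF2AK1, the kinase that senses low heme, had 335 ± 2.33 CPM in shControl and 343 ± 5.90 CPM in shIFITM3, and EIF2AK2 (PKR), which senses double-stranded RNA, had 99.6 ± 4.53 and 95.5 ± 7.04 CPM; neither passed the test (edgeR adjusted p = 0.351 and 0.343). In the list of 12 such genes 6 fell and 1 rose, with a median log2 change of -0.13. In either direction 58.3% changed, close to the 56.1% of all tested genes. The median size of change was 0.15, below the 0.25 of all tested genes. The falls with the smallest p were EIF2S2 (-0.52) and EIF2S1 (-0.17), which encode the beta and alpha subunits of eIF2, GCN1 (-0.28), which encodes a partner needed to activate GCN2, and EIF2B3 (-0.34), a subunit of the exchange factor eIF2B (edgeR adjusted p of 0.000164 or less for each).

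ATF4 mRNA itself moved little. ATF4 (chromosome 22, 39520559 to 39522686) was at 279.6, 287 and 298 CPM in shControl and 272, 272 and 261 CPM in shIFITM3. The ranges were separate but close, and the log2 change was -0.10 (SE 0.0338, edgeR adjusted p = 0.0129). That fall no longer passed without shControl replicate 3 (-0.08, edgeR adjusted p = 0.0943) or without shIFITM3 replicate 3 (-0.08, 0.0724). The other 4 factors of the set were higher in the knockdown. NUPR1 (chromosome 16, 28532708 to 28538974), a small stress-induced chromatin protein, had the largest change of the 37 genes but low counts, with 6, 39 and 8 counts in the control libraries and 79, 67 and 64 in the knockdown libraries. That is 0.283, 0.507 and 0.292 CPM against 3.59, 2.91 and 2.68 CPM, a log2 change of 2.92 (SE 0.316, edgeR adjusted p = 3.11e-08). The lowest knockdown sample was still above 5 times the highest control sample.

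DDIT3 (chromosome 12, 57516588 to 57520517), which encodes the pro-apoptotic factor CHOP, rose from 6.23 ± 0.219 to 9.47 ± 1.29 CPM (log2 change 0.61, SE 0.125, edgeR adjusted p = 0.000213). In the GENCODE annotation, 27.2% of the DDIT3 exon bases lie opposite exons of MARS, which had far more counts (147 ± 1.40 CPM in shControl) and fell, and whether the counting used strand is not given in the sources used here. CEBPG (chromosome 19, 33373709 to 33382686), a C/EBP factor that pairs with ATF4 on DNA, rose from 54.4 ± 2.39 to 63.9 ± 0.518 CPM (0.23, edgeR adjusted p = 0.000365). CEBPB (chromosome 20, 50190583 to 50192690), another C/EBP partner, was at 52.5, 51.7 and 49.7 CPM in shControl and 61.2, 55.9 and 54.7 CPM in shIFITM3. The groups were separate by a narrow margin, and the change of 0.16 (edgeR adjusted p = 0.015) was lost without shControl replicate 3 (0.13, edgeR adjusted p = 0.0716) or without shIFITM3 replicate 1 (0.11, 0.131).

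**Figure D2:**
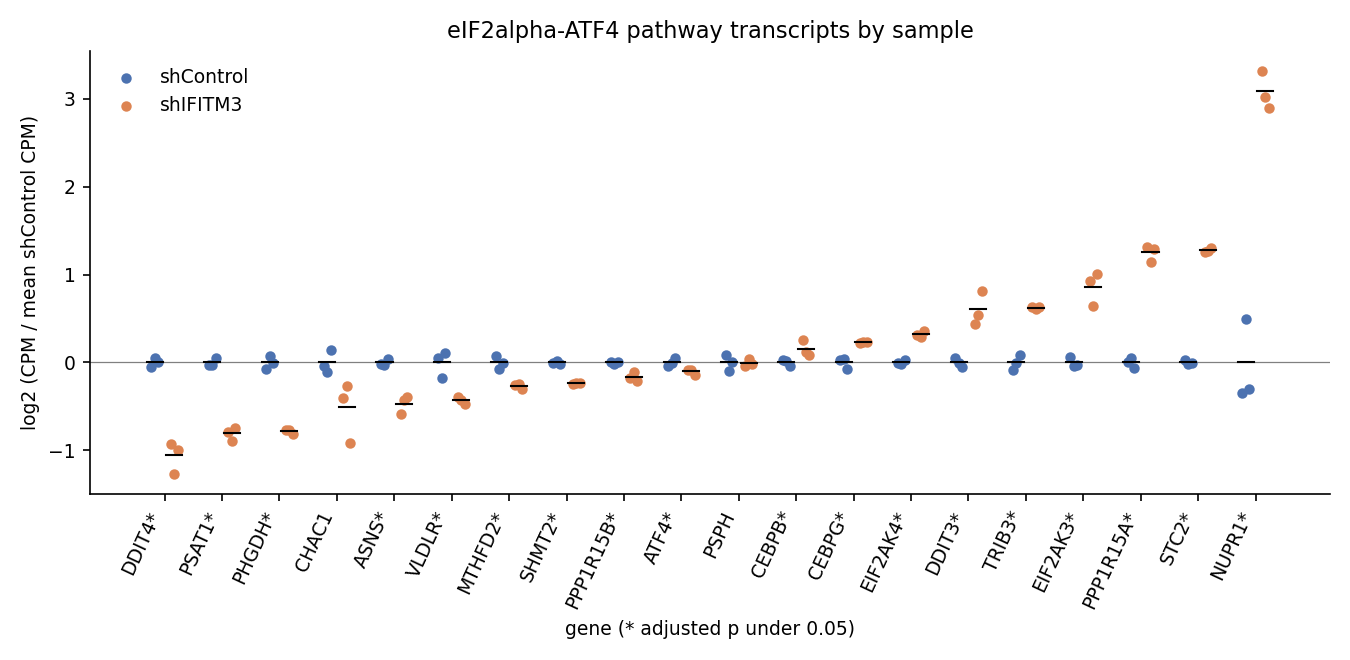
Each sample's level of the 20 pathway genes as log2 of its CPM over the mean shControl CPM (y axis), with genes in order of fold change (x axis), points for samples and short lines for group means. Asterisks mark the 18 genes with a BH-adjusted p under 0.05, and the ranges of the groups overlap in 1 gene, PSPH.

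The classical targets of ATF4 split. Of the 5 effector genes STC2 and TRIB3 rose, DDIT4 and VLDLR fell, and CHAC1 did not pass. The shares that rose and fell were 40% each, beside 27.7% and 28.4% of all tested genes, in a group of only 5 genes. STC2 (chromosome 5, 173314723 to 173328414), which encodes the secreted glycoprotein stanniocalcin-2, was at 101, 98.0 and 98.8 CPM in shControl and 238, 239 and 245 CPM in shIFITM3. Its samples agreed closely within each group, and with a log2 change of 1.28 (SE 0.0362, edgeR adjusted p = 5.42e-19) it had the smallest p of the 37 genes. TRIB3 (chromosome 20, 380760 to 397559), a pseudokinase that binds AKT and also restrains ATF4, was at 46.3, 48.7 and 52.0 CPM and 75.7, 74.5 and 76.0 CPM. All knockdown samples were higher, by 0.62 on the log2 scale (SE 0.0501, edgeR adjusted p = 2e-10).

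DDIT4 (chromosome 10, 72273924 to 72276036) encodes REDD1, an inhibitor of mTORC1, and went the other way, from 38.3, 41.1 and 39.9 CPM in shControl to 21.0, 16.6 and 19.9 CPM in shIFITM3. It was the largest fall of the 37 genes, to 0.480 times the control level (log2 change -1.06, SE 0.0759, edgeR adjusted p = 2.2e-11). VLDLR (chromosome 9, 2621787 to 2660056), a lipoprotein receptor, fell from 14.6 ± 1.46 to 10.9 ± 0.274 CPM (-0.41, edgeR adjusted p = 0.00128). CHAC1 (chromosome 15, 40953471 to 40956512), which encodes an enzyme that degrades glutathione and is a much-used marker of ATF4 activity, was scarce, with 26, 90 and 38 counts in the shControl libraries and 21, 24 and 16 in the shIFITM3 libraries. All 3 knockdown samples were below the controls in CPM (1.26 ± 0.113 against 0.889 ± 0.195), but the difference of -0.49 had an SE of 0.320 and did not pass (edgeR adjusted p = 0.197).

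Enzymes that make serine, one-carbon units and asparagine were lower. PHGDH (chromosome 1, 119711934 to 119744215), which catalyses the first committed step from glycolysis to serine, was at 113, 126 and 118 CPM in shControl and 70.2, 69.8 and 67.7 CPM in shIFITM3. PSAT1 (chromosome 9, 78297125 to 78330093), the next enzyme, was at 205, 205 and 216 CPM and 121, 112 and 125 CPM. In both genes every knockdown sample lay far below every control, with log2 changes of -0.79 (SE 0.0462, edgeR adjusted p = 5.42e-13) and -0.81 (SE 0.0414, edgeR adjusted p = 4.48e-14). PSPH (chromosome 7, 56011064 to 56051444), which completes the pathway, had overlapping groups (85.2 ± 5.51 and 84.9 ± 2.59 CPM), a log2 change of 0.0019 with an SE of 0.0490 and an edgeR adjusted p of 0.977.

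Downstream of serine, SHMT2 (chromosome 12, 57229711 to 57234935), the mitochondrial enzyme that splits serine into glycine and a folate-bound carbon, was at 146, 148 and 145 CPM in shControl and 123, 125 and 125 CPM in shIFITM3, a log2 change of -0.24 (edgeR adjusted p = 9.12e-06). MTHFD2 (chromosome 2, 74198615 to 74217565), which oxidizes that carbon unit in mitochondria, was at 156, 141 and 148 CPM and 124, 126 and 120.1 CPM (-0.26, edgeR adjusted p = 1.08e-05). In neither gene did the groups overlap. Exons of SLC4A5 lie opposite 27.2% of the MTHFD2 exon bases, and SLC4A5 had far fewer counts (7.28 CPM in shControl). ASNS (chromosome 7, 97851677 to 97928441), asparagine synthetase, was at 20.6, 20.4 and 21.5 CPM in shControl and 13.9, 15.4 and 15.9 CPM in shIFITM3. Its groups were separate, and the log2 change was -0.46 (SE 0.0840, edgeR adjusted p = 4.99e-05).

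Other serine and folate enzymes were mostly lower. Of 9 tested genes of 10 listed, 6 fell and 1 rose, with a median of -0.31. These are 66.7% and 11.1%, beside 28.4% and 27.7% of all tested genes. MTHFD1 fell from 293 ± 4.34 to 199 ± 4.22 CPM (-0.55), and thymidylate synthase TYMS (-0.61), cytosolic SHMT1 (-0.31) and the glycine cleavage protein gene GCSH (-0.41) fell as well (edgeR adjusted p of 5.04e-06 or less). The rise was that of GLDC (0.596 ± 0.0796 to 1.15 ± 0.331 CPM, edgeR adjusted p = 0.0228), a low-count gene whose call was lost without shControl replicate 2, shIFITM3 replicate 2 or shIFITM3 replicate 3 (edgeR adjusted p = 0.123, 0.0825 and 0.111). GLDC was named after its values were seen.

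Most cytosolic synthetases were lower, inside and outside the multi-synthetase complex, an assembly of several of these enzymes with 3 scaffold proteins. Of the 7 enzymes of the complex described here 6 fell and 0 rose, with a median log2 change of -0.29. Of the 10 outside the complex 5 fell and 2 rose, with a median of -0.11. Over all tested genes 28.4% fell and 27.7% rose. The difference between these enzyme groups was not tested. Summed over the complex members, the level was 1729, 1671 and 1714 CPM in shControl samples 1 to 3 and 1389, 1408 and 1412 CPM in the shIFITM3 samples. The other 10 summed to 1765, 1709.8 and 1731 CPM and 1631, 1604 and 1635 CPM. Both sums were lower in every knockdown sample, at 0.823 and 0.936 times the mean control level.

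IARS (chromosome 9, 92210207 to 92293697), the isoleucine enzyme, had the largest fall of the complex. It was at 423, 412 and 419 CPM in shControl and at 324, 326 and 323 CPM in shIFITM3, a log2 change of -0.36 (SE 0.0296, edgeR adjusted p = 2.13e-10). EPRS (chromosome 1, 219968600 to 220046505), the bifunctional enzyme for glutamate and proline, was at 365, 344 and 349.5 CPM and 273, 278 and 279 CPM (-0.35, SE 0.0324, edgeR adjusted p = 2.4e-09). The knockdown samples of both genes lay within a few CPM of each other and well below the controls. MARS (chromosome 12, 57488068 to 57516652), for methionine, was at 146, 148 and 147 CPM in shControl and 115, 119.6 and 117 CPM in shIFITM3 (-0.33, edgeR adjusted p = 9.3e-08). LARS (chromosome 5, 146113034 to 146182650), for leucine, whose product is also known as a leucine sensor for mTORC1, was at 225, 211 and 216 CPM and 178, 171 and 182 CPM (-0.29, edgeR adjusted p = 3.48e-07). RARS (chromosome 5, 168486471 to 168519301), for arginine, was at 191, 183 and 198 CPM and 152, 157 and 162 CPM (-0.28, edgeR adjusted p = 1.66e-06). None of these 3 genes had overlapping groups. KARS (-0.19, edgeR adjusted p = 3.16e-05), for lysine, fell less. QARS, for glutamine, was the complex member that did not pass, at 130.5 ± 1.01 and 132 ± 4.62 CPM (0.02, SE 0.0391, edgeR adjusted p = 0.655).

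**Figure D3:**
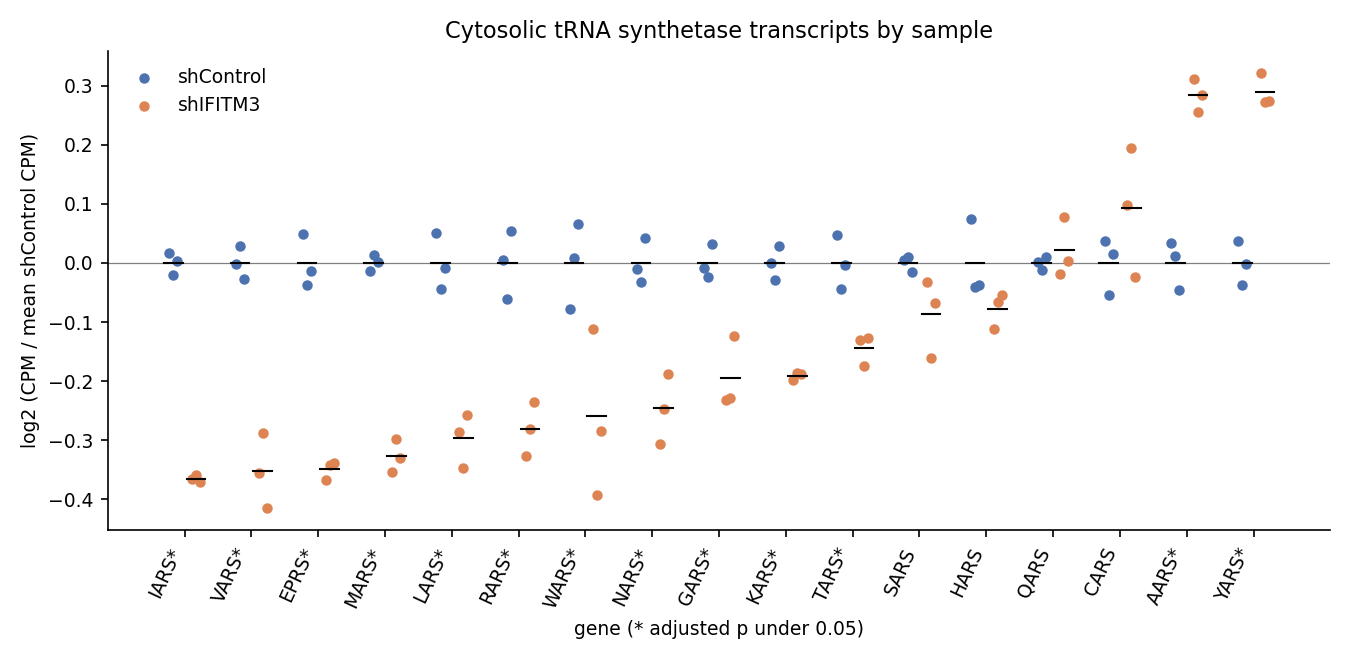
Each sample's level of the 17 cytosolic synthetase genes as log2 of its CPM over the mean shControl CPM (y axis), in order of fold change (x axis), with points for samples and short lines for group means. The knockdown samples of AARS and YARS lie above all controls, those of 13 genes lie below, and those of CARS and QARS overlap them.

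AARS and YARS were the 2 synthetases that rose. AARS (chromosome 16, 70252298 to 70289506), for alanine, was at 164, 161 and 155 CPM in shControl and 199, 191 and 195 CPM in shIFITM3 (0.28, SE 0.0363, edgeR adjusted p = 4.19e-07). YARS (chromosome 1, 32775239 to 32817358), for tyrosine, was at 105, 99.4 and 102 CPM and 128, 123 and 123 CPM (0.29, SE 0.0403, edgeR adjusted p = 1.35e-06). In both genes the lowest knockdown sample was above the highest control. VARS (chromosome 6, 31777518 to 31795752), for valine, had the largest fall outside the complex, with 211, 215 and 207 CPM in shControl and 165, 173 and 158 CPM in shIFITM3 (-0.35, SE 0.0377, edgeR adjusted p = 2.47e-08). WARS (-0.26), for tryptophan, NARS (-0.24), for asparagine, GARS (-0.19), for glycine, and TARS (-0.14), for threonine, fell too (edgeR adjusted p of 0.00288 or less).

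The other 3 enzymes outside the complex did not pass. SARS (chromosome 1, 109213893 to 109238182), for serine, was close to the threshold, at 135, 135 and 133 CPM in shControl and 131, 120.0 and 128 CPM in shIFITM3, with the groups narrowly separate (-0.09, SE 0.0406, edgeR adjusted p = 0.0741). It passed with upper-quartile scaling (-0.10, edgeR adjusted p = 0.0299) and without shIFITM3 replicate 1 (-0.12, 0.0398). HARS, for histidine, was at 99.3 ± 4.56 and 94.1 ± 1.99 CPM (-0.07, SE 0.0439, edgeR adjusted p = 0.16), and shares exon sequence on opposite strands with HARS2 and WDR55. CARS, for cysteine, was at 32.1 ± 1.06 and 34.2 ± 2.58 CPM (0.10, SE 0.0658, edgeR adjusted p = 0.216).

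The genes that complete the cytosolic machinery were mostly lower. FARSB, the beta subunit of the phenylalanine enzyme, fell from 305 ± 4.25 to 218 ± 8.33 CPM (-0.48, edgeR adjusted p = 1.97e-11), more on the log2 scale than any of the 17 synthetases. Its partner FARSA (-0.18) and the complex scaffold genes AIMP2 (-0.26) and AIMP1 (-0.19) fell as well (edgeR adjusted p = 0.0007, 0.00066 and 0.0055). The AIMP1 call was lost without shIFITM3 replicate 2 (edgeR adjusted p = 0.0507). EEF1E1, the third scaffold, was at 12.9 ± 1.04 and 14.1 ± 0.926 CPM and did not pass.

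The synthetase genes listed as mitochondrial only, nuclear genes that serve the mitochondrial ribosome, were lower as well. Genes that serve both compartments, such as GARS and KARS, were counted above with the cytosolic ones. Of 16 genes 9 fell and 0 rose, with a median log2 change of -0.28. The share that fell was 56.25%, beside 28.4% of all tested genes. Counted in either direction, the share called was 56.25%, close to the 56.1% of all tested genes. The ranges of the groups were separate in 9 of the 16 and overlapped in 7, beside 60.9% separate over all tested genes. Their summed level was 984, 967 and 974 CPM in shControl and 790.3, 769.9 and 788 CPM in shIFITM3, 0.803 times the control mean. EARS2 fell most, from 95.7 ± 1.51 to 59.2 ± 2.02 CPM (-0.69, edgeR adjusted p = 3.89e-12), and IARS2 (-0.36) and CARS2 (-0.48) also fell. For 14 amino acids both enzymes could be set side by side. In 6 pairs both fell, in 3 the cytosolic gene alone and in 3 the mitochondrial gene alone, and in 2 neither fell. How often unlinked genes would fall together was not worked out. EPRS was paired with EARS2 only. PARS2, for proline (-0.04, edgeR adjusted p = 0.779), and FARS2, for phenylalanine (-0.17, edgeR adjusted p = 0.145), were left out of the pairs. The alanine pair went in opposite directions, with AARS at 0.28 and AARS2 at -0.55 (edgeR adjusted p = 2.14e-06). For tyrosine, YARS rose while YARS2 had -0.02 (edgeR adjusted p = 0.702). For arginine, RARS fell while RARS2 had 0.01 (edgeR adjusted p = 0.903). The differences within pairs were not tested.

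**Figure D4:**
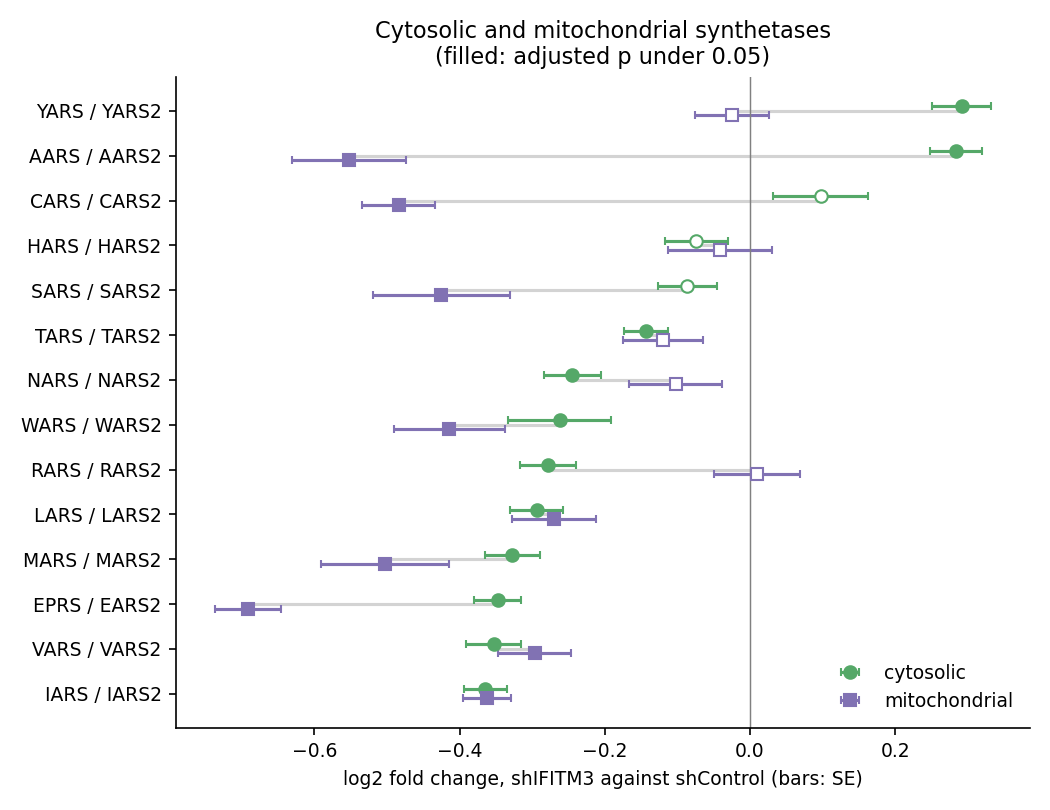
Log2 change (x axis, bars for the standard error) of the cytosolic (circles) and mitochondrial (squares) synthetase gene for each of 14 amino acids, filled where the adjusted p was under 0.05. The mitochondrial genes lie at or below 0.01, and the alanine pair is the farthest apart.

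ATF4 and its C/EBP partners bind a composite DNA element known as the CARE. Its core, TGATGNAA, was searched on both strands of the windows from 250 bases before to 50 bases after the annotated starts (RefSeq, GRCh38.p14), of which 31 of the 37 genes had at least 1. A match was found in 11 of these 31 genes (35.5%), 7 of 14 synthetases and 4 of 17 pathway genes. Over the 10340 tested genes with a window under the same symbol in both sources the share was 2.66%. Genes listed under an older symbol in the count table, the synthetases among them, are not in this share. Over all 27305 genes with a window, tested or not, it was 4.46%. Of the 11 genes 7 fell, 2 rose and 2 did not pass, so genes with the element in this window went both ways. Of all 31 genes with a window 17 fell and 9 rose, and over all tested genes 28.4% fell and 27.7% rose. Whether the direction went with the element was not tested. The matches are shown because they align across genes that fell (ASNS, GARS, IARS, MARS, NARS, TARS and PPP1R15B), that rose (AARS and CEBPG) and that did not pass (CARS and CHAC1). Each is given with 20 bases on either side, on the strand on which the core reads TGATGNAA, with the core in capitals. 
ASNS (chr7:97872449-97872496, minus strand): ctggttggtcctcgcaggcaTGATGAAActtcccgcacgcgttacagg
GARS (chr7:30594825-30594872, minus strand): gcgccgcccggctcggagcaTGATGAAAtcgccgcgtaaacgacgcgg
IARS (chr9:92293683-92293730, plus strand): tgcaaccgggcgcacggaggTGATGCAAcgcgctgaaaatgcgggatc
MARS (chr12:57488044-57488091, minus strand): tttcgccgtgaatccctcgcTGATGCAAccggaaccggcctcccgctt
NARS (chr18:57621795-57621842, minus strand): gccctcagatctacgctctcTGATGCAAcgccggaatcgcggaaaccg
TARS (chr5:33440947-33440994, minus strand): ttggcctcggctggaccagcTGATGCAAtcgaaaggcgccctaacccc
PPP1R15B (chr1:204412017-204412064, minus strand): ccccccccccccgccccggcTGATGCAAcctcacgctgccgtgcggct
AARS (chr16:70289666-70289713, plus strand): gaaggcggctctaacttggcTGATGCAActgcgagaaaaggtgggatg
CEBPG (chr19:33374051-33374098, plus strand): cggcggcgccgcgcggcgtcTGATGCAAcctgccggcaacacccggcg
CARS (chr11:3057398-3057445, plus strand): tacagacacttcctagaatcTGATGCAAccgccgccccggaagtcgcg
CHAC1 (chr15:40953242-40953289, minus strand): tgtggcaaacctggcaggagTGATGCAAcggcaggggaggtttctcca

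The core read TGATGCAA in 9 genes and TGATGAAA in ASNS and GARS. In 8 of the 11 genes it began within 70 bases of an annotated start. Counted along the gene, it began 68 bases before that start in ASNS, 33 in GARS, 13 in IARS, 4 in MARS, 2 in CARS and 42 in CEBPG. In TARS and NARS it began 2 and 14 bases after the start. The start used in ASNS, GARS, TARS and CEBPG lies inside the RefSeq span of the gene and is not the outermost one. At the outermost start, the windows of GARS, TARS and CEBPG held no match, and ASNS had no window. In PPP1R15B, CHAC1 and AARS it began 227, 209 and 187 bases before. ASNS and AARS both carry a match, and their log2 changes were -0.46 and 0.28. The genes with the 3 largest rises that had a window, STC2, PPP1R15A and EIF2AK3, held no match in it, which says only that these letters are not in this window. A match is a description of sequence and not evidence of binding.

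Levels of different genes can be set side by side only per length, here as CPM per kilobase of exon (GENCODE release 29). The length was that of all annotated exons of a gene merged, which can exceed that of the transcript expressed. It was 5674 bases for NUPR1 and 10037 for CARS, against 2058 for CHAC1, so the ranks below depend on it. On that scale ATF4 was the most abundant of the 37 in shControl, at 115 ± 3.61, and TARS the most abundant synthetase, at 109.6 ± 3.49. These differed by less than the sum of their SDs. EPRS (64.7 ± 2.02), KARS (61.1 ± 1.22), IARS (56.5 ± 0.721) and RARS (55.8 ± 2.21) followed among the synthetases, and IARS and RARS did not differ beyond their spread. WARS (5.49 ± 0.275) and CARS (3.20 ± 0.105) were the lowest synthetases. NUPR1 (0.0635 ± 0.0223) was the lowest of the 37 genes in shControl. In shIFITM3 it was at 0.539 ± 0.0834 and CHAC1, then the lowest, at 0.432 ± 0.0949, which differed by less than the sum of their SDs. Without length scaling, NUPR1 was at 3.06 and CHAC1 at 0.889 CPM in shIFITM3. PPP1R15A went from 22.3 ± 0.930 CPM per kilobase, below IARS, to 53.1 ± 3.40, above IARS (43.8 ± 0.173) in the knockdown. PSAT1 went from 95.3 ± 2.95 to 54.5 ± 2.92.

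**Figure D5:**
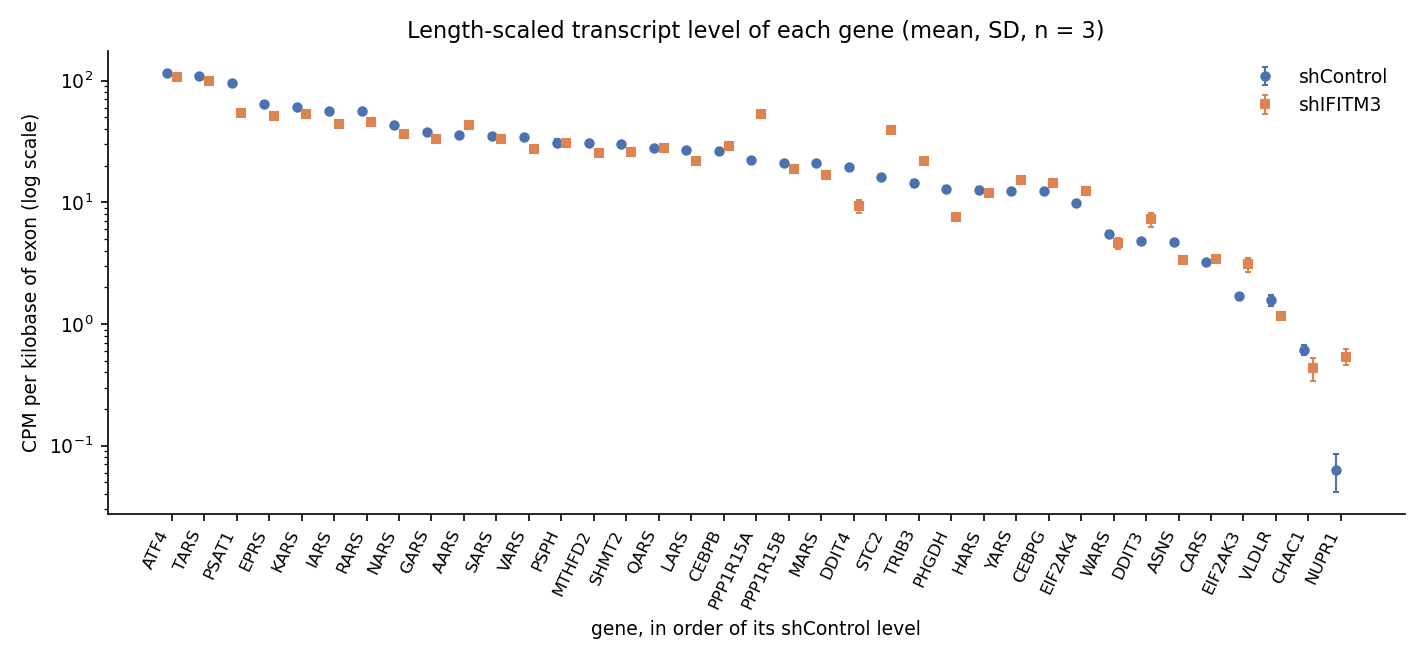
Length-scaled level (CPM per kilobase of exon, log axis) of each of the 37 genes in shControl (circles) and shIFITM3 (squares), mean with SD bars over 3 samples, in order of the control level (x axis). PPP1R15A and STC2 stand above their control level, and DDIT4 and PSAT1 below it.

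Other known ATF4 targets were also divided. Of 20 tested genes of 21 listed, 8 rose and 8 fell, with a median of 0.06. That is 40% each way, beside 27.7% upwards and 28.4% downwards for all tested genes. With other settings the falls numbered 6 to 8, with 6 when shControl replicate 2 was left out, and the rises stayed at 8. Amino acid transporter genes had the smallest p in both directions. SLC7A5, the light chain of a large neutral amino acid exchanger, fell from 2772 ± 28.0 to 1511 ± 46.8 CPM (-0.88), and its heavy chain SLC3A2 from 705 ± 5.16 to 468 ± 10.6 CPM (-0.59). The cystine transporter gene SLC7A11 rose from 285 ± 18.8 to 577 ± 29.3 CPM (1.02) and the glutamine transporter gene SLC38A2 from 246 ± 7.34 to 447 ± 21.7 CPM (0.86). Each of these 4 reached an edgeR adjusted p of 1.18e-14 or below.

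The ER stress genes listed for the other sensors, IRE1 and ATF6, with the sensor genes themselves among them, were mostly higher. Whether they rose through these sensors or through PERK and ATF4 was not tested. Of 20 tested genes 12 rose and 1 fell, beside 27.7% and 28.4% of all tested genes, with a median of 0.16. EDEM1, which marks misfolded proteins for disposal, rose from 87.6 ± 5.70 to 137 ± 5.95 CPM (0.65), HERPUD1, part of the same disposal route, from 13.1 ± 1.74 to 28.2 ± 0.309 CPM (1.12), the co-chaperone gene DNAJB9 from 16.8 ± 1.01 to 29.2 ± 1.82 CPM (0.81) and XBP1, the transcription factor made active by IRE1, from 24.5 ± 1.07 to 39.7 ± 3.12 CPM (0.69). Each reached an edgeR adjusted p of 5.59e-09 or below. HSPA5, which encodes the abundant ER chaperone BiP, rose by 0.18 on the log2 scale (edgeR adjusted p = 3.12e-05). SEL1L, the member that fell, had a log2 change of -0.51. HSPA5 and SEL1L were chosen after their values were seen.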

How the data were processed

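The deposited table holds the authors' unnormalized read counts by gene symbol for 3 shControl and 3 shIFITM3 samples. On build hg38, the submitters' processing notes name HISAT2 2.2.1, featureCounts (Subread 2.0.6), fastp 0.23.4, FastQC 0.12.1 and SAMtools 1.20. Which annotation and strand setting were used for counting is not given in the sources used here. Only 29.0% to 34.0% of counts from 1 to 100 were odd, so reads of a pair may have been counted singly, and counts are then not independent.

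Genes passing filterByExpr (14018) were scaled by TMM and tested in edgeR 4.0.16 (R 4.3.3) with glmQLFit and glmQLFTest on group alone, two-sided, with Benjamini-Hochberg adjustment over all tested genes. CPM are on TMM-scaled libraries, and the SE is the absolute log2 fold change over the square root of F. The script was tested on simulated counts. Coordinates come from RefSeq (GRCh38.p14, the assembly of hg38), and exon lengths and overlaps from GENCODE 29. The members and lists were chosen with earlier results of these data known. Some items of the lists are not reported here. All members described are named, with values by sample for the 8 synthetases and 12 other genes with the smallest p and for those near the threshold, and up to 4 genes with the smallest p of each other list. EIF2AK1, EIF2AK2, YARS2, RARS2, PARS2, FARS2, EEF1E1, GLDC, HSPA5 and SEL1L were named beyond this rule, with their values known. Alternatives were RLE and upper-quartile scaling, no filter, a strict filter, DESeq2 1.42.0, limma-voom (limma 3.58.1), a replicate block, a thinned deepest library and each library left out.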

Additional observations from a re-analysis of the deposited data

How the results depend on the processing

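Over the 14 alternatives, 34 of the 37 genes stayed on their side of the threshold in every setting that gave a value, and ATF4, CEBPB and SARS crossed it in 2 settings each, with the values given above. No gene that passed changed direction; PSPH and QARS, which did not pass, changed sign in some settings. CHAC1 had no value under the strict filter. The synthetases that fell numbered 11 to 12 and those that rose 2; the pathway genes that rose and fell numbered 8 to 9 each. IFITM3 fell in every setting. Of the other lists, the IRE1 and ATF6 genes that fell went from 1 to 2 with upper-quartile scaling and with the thinned library (1 to 2 over left-out libraries), and the serine and folate genes that rose from 1 to 0 under the strict filter (0 to 1 over left-out libraries). The first of these small counts turns on 1 gene near the threshold. The second turns on GLDC, whose counts were too low for the strict filter, so it was not tested there. The replicate numbers did not pair the samples: same-numbered samples had deviations correlated at 0.0157, 0.033 and 0.00634, and not every sample correlated best with its own number. With the replicate block, 3865 genes rose and 4005 fell over all tested genes, against 3885 and 3985 without it, and the counts of synthetases (2 rose, 11 fell) and pathway genes (9 and 9) were as before. With 6 to 39 control counts, NUPR1 rests on the lowest depth. The p-values measure the spread among 3 replicates of each group.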

Other observations

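Ratios of 2 transcripts within a sample do not depend on library scaling. The ratio of PPP1R15A to PPP1R15B in CPM was 0.623, 0.653 and 0.592 in shControl samples 1 to 3 and 1.75, 1.48 and 1.76 in the shIFITM3 samples, higher in every knockdown sample than in every control. The ratio of TRIB3 to ASNS, both known ATF4 targets, was 2.25, 2.39 and 2.43 in the controls and 5.44, 4.83 and 4.79 in the knockdown. The ratio of PSAT1 to PSPH, successive enzymes of serine synthesis, was 2.27, 2.57 and 2.52 in the controls and 1.46, 1.28 and 1.48 in the knockdown. The ranges did not overlap in any of these 3 ratios, which were chosen after the values were seen and were not tested.

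The synthetases fall into 2 structural classes. Of 9 class I enzymes 6 fell and 1 (YARS) rose, with a median log2 change of -0.28. Of 7 class II enzymes 4 fell and 1 (AARS) rose, with a median of -0.14. Over all tested genes 28.4% fell and 27.7% rose. The difference between the classes was not tested. EPRS, which holds a catalytic domain of each class, was left out of this count.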
